A study of Mus musculus with 10 samples.

Results

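The 39 interferon response and antigen presentation genes described here were taken by name from the 29583 genes of the deposited table, in which each name had 1 row. They comprise 4 transcription factors, 3 RNA sensors, 6 genes of the Ifit, Isg15 and Usp18 group, 5 genes of the Oas family, 4 genes of the Mx, Rsad2 and Bst2 group, 3 guanylate-binding proteins, 8 other effectors and 6 genes of antigen presentation. All 39 had enough counts to be tested, as did 16794 of the 29583 genes.

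The study asked how β-ecdysterone, a plant steroid related to insect moulting hormones, changes gene expression in MC3T3-E1 cells, a mouse preosteoblast line derived from newborn C57BL/6 calvaria, of which a single subclone was used. Standard medium held β-ecdysterone at 0, 100, 150 or 200 μM, polyadenylated RNA was taken on day 5 or day 10, and it was sequenced. There was 1 library for each dose and day, which gives 3 treated libraries on day 5, 3 treated libraries on day 10 and a single 0 μM library on each day, and 2 further libraries, A-5 and B-4, were labelled untreated without a time. The titles name MC3T3-E1, whereas the source label of the same libraries names bone marrow mesenchymal stem cells. The treated libraries differ in dose or day, so the spread behind each p-value includes dose as well as culture and technical differences, and no dose and day has a replicate. The protocol states n = 3 without saying how this relates to the libraries.

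Library totals ran from 27108562 to 58218009 counts, and 4 of the 8 dosed libraries exceeded 40000000 counts: 0 μM on day 5, 150 μM on both days and 200 μM on day 10. The osteoblast markers Col1a1, Col1a2 and Runx2 were high in all 10 libraries, while Alpl and Ibsp were at 0.855 CPM or less at 0 μM. In the treated libraries Alpl was at 16.2 to 64.9 CPM and Ibsp at 73.5 to 807.5 CPM. Of the 8 osteoblast markers, 4 (Alpl, Ibsp, Sp7 and Runx2) were called over 2-fold higher with treatment, against 13.4% of all genes. None (0) was called lower, but Spp1 was lower without the fold limit. Bglap, Col1a1 and Col1a2 did not pass the test. The lymphocyte markers reached at most 11 counts in a library and those of plasmacytoid dendritic cells at most 8. The summed macrophage markers were at 31.6 to 62.9 CPM (counts scaled to library size) in the treated libraries and 17.6 to 30.3 CPM at 0 μM. Nearly all of this was Lyz2, while Adgre1, Itgam and C1qa were at or near 0. Cd68 went the other way, at 0.965 to 1.21 CPM in the treated libraries and 1.46 and 1.55 CPM at 0 μM, and did not pass the test. Csf1r and Ptprc reached at most 25 and 12 counts in a library. The summed endothelial markers were at 2.05 to 2.63 CPM in the treated libraries and 0.611 to 0.76 CPM at 0 μM. Summed adipocyte markers were at 0.665 to 1.6 CPM in the treated libraries and 0.0986 to 0.19 CPM at 0 μM, with at most 41 counts of a marker in a library. The largest part in each treated library was Lep, at 0.316 to 1.365 CPM, against 0.0395 and 0.0633 CPM at 0 μM. Plin1 did not pass the test, Adipoq reached at most 6 counts and Cfd had 0 counts in all 10 libraries. The part of these shifts in the results below was not tested. The 2 untreated libraries stood apart from each other: B-4 was over 2-fold higher than A-5 in 1952 and over 2-fold lower in 1778 of the 16794 genes, against 446 and 777 genes between the 0 μM libraries of days 10 and 5.

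Type I interferons bind the receptor Ifnar1/Ifnar2 and activate the kinases Jak1 and Tyk2, which phosphorylate transcription factors that include Stat2. Stat2 and Irf9 are part of the factor ISGF3, which binds interferon-stimulated response elements (ISRE) in promoters. Interferon gamma acts through Ifngr1/Ifngr2 and gamma-activated sites (GAS), where Irf1 is an early target that in turn drives other genes. The induced genes restrict viral replication, degrade RNA, modify proteins with Isg15, or load peptides onto major histocompatibility complex (MHC) class I molecules at the cell surface. Many cells hold a low tonic level of this program without infection.

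The members spanned a wide range of levels. On the FPKM scale, fragments corrected for gene length and sequencing depth, B2m, the light chain of MHC class I, was the highest, with a median of 712.5 FPKM over the 10 libraries (454.4 to 1050). The heavy chains H2-D1 and H2-K1 followed, with medians of 279 and 153.7 FPKM, then Ifi27 with 69.1 and Bst2 with 30.9 FPKM. The lowest were Rsad2, at a median of 0.108 FPKM, Oasl1 at 0.274, Oas3 at 0.554 and Mx1 at 0.725 FPKM. Oasl1 and Rsad2 were counted between 2 and 91 and between 4 and 54 times in a library, so that their values carry large counting error.

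**Figure D1:**
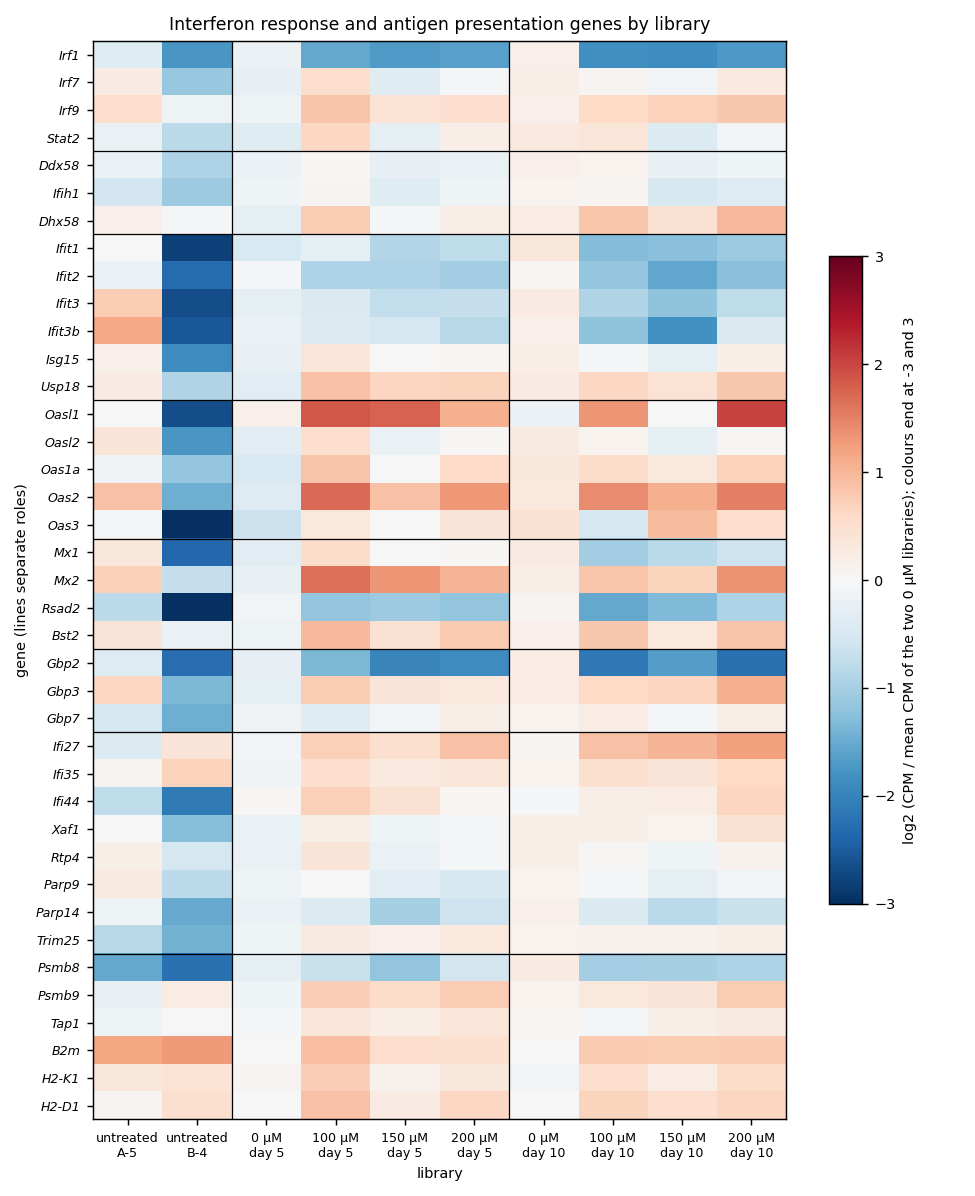
Heat map of the 39 genes (rows, grouped by role) in the 10 libraries (columns), coloured by log2 of CPM over the mean of the 0 μM libraries. Irf1, Gbp2, Ifit2 and Rsad2 are blue in all 6 treated libraries, Oas2 and Mx2 are red, and the untreated library B-4 is blue in most rows above antigen presentation.

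Promoter windows of 250 bases before the gene start were matched by symbol in RefSeq (GRCm38.p6) for 30 of the 39 members, in 35 windows because some genes have more than 1. An ISRE-type word, GAAANNGAAA or TTTCNNTTTC on the other strand, lay in a window of 13 of these 30 genes (43.3%), against 3.45% of all 26994 genes with a window, and in 37.1% of the member windows, against 2.97% of all 32817 windows. A GAS-type word, TTCNNNGAA, which is its own reverse complement, lay in a window of 6 of 30 (20%), against 8.12% of all genes with a window, and in 17.1% of the member windows, against 7.01% of all. The members carrying an ISRE-type word were B2m, Bst2, Gbp2, Gbp3, Gbp7, Ifit1, Ifit3, Ifit3b, Isg15, Oas1a, Oas3, Rsad2 and Stat2, and those with a GAS-type word were Bst2, Gbp7, Ifit2, Irf1, Oas1a and Psmb8. The stretches of 30 bases below show the words, in capitals, in genes that are compared later. They are read along the gene's own strand. At an adjusted p under 0.05 without a fold limit, Ifit1, Ifit3, Gbp2 and Rsad2 fell with treatment and Gbp3, Bst2 and B2m rose. Of these only Gbp2 and Rsad2 changed by over 2-fold.
Ifit1 (chr19:34640785-34640814, + strand): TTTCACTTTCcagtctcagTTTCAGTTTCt
Ifit3 (chr19:34583363-34583392, + strand): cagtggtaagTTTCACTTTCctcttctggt
Gbp2 (chr3:142620594-142620623, + strand): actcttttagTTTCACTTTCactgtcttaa
Rsad2 (chr12:26456553-26456582, - strand): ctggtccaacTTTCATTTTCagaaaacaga
Isg15 (chr4:156200871-156200900, - strand): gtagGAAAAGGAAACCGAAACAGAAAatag
Gbp3 (chr3:142559992-142560021, + strand): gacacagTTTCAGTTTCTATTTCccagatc
Bst2 (chr8:71537583-71537612, - strand): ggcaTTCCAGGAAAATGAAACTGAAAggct
B2m (chr2:122147538-122147567, + strand): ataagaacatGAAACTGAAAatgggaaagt
The word of Gbp2 precedes the RefSeq start but lies inside the first exon of a Gbp2 transcript in GENCODE M21, which starts further upstream. In Isg15 and Gbp3 several ISRE-type words overlap, and in Bst2 a GAS-type word overlaps the first ISRE-type word. The word of Gbp2 has the same 10 letters as the first word of Ifit1, Ifit3 and Ifit3b, TTTCACTTTC. B2m holds a single word, 139 bases before its start. Rsad2 lies on the minus strand and has its word 120 bases before the start.

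Windows of Irf1 and Ifit2 are given in full because these genes fell by over 2-fold and hold a GAS-type word (capitals) and no ISRE-type word. Both are the first of 2 windows of their gene.
Irf1 (chr11:53769764-53770013, + strand): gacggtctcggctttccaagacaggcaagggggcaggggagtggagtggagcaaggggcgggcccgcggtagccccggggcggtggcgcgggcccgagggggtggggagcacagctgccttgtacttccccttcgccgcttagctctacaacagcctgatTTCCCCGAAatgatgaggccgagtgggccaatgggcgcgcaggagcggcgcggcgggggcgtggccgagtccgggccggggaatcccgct
Ifit2 (chr19:34550444-34550693, + strand): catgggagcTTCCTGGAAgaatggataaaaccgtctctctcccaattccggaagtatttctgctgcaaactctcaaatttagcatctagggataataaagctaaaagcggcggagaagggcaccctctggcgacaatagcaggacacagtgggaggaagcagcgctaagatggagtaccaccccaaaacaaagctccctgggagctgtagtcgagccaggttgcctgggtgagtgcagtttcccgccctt
The word of Irf1 lies 90 bases before the start and that of Ifit2 241 bases before it. Oasl1 was the only gene called higher that had a window, and that window held neither word.

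With β-ecdysterone the members moved in both directions. Against the 0 μM libraries, 3 members rose by over 2-fold (Oas2, Mx2 and Oasl1) and 4 fell by over 2-fold (Irf1, Gbp2, Ifit2 and Rsad2), called at an adjusted p under 0.05 in edgeR's quasi-likelihood test of 6 against 2 libraries with day as a covariate. The share called higher was 7.69% of the members, against 13.4% of all genes tested, and the share called lower was 10.3%, against 5.98%. Without the fold limit, 13 members (33.3%) were higher, against 22.6% of all genes, and 8 (20.5%) were lower, against 20.8%. The median log2 fold change was 0.14 over the members and 0.05 over all genes tested. In bulk RNA, fewer cells expressing a gene and less RNA per cell cannot be told apart. These counts rest on the 2 single 0 μM libraries. Without the 0 μM library of day 5, 1 member was called higher (Oas2) and 7 lower (Irf1, Gbp2, Ifit1, Ifit2, Ifit3, Mx1 and Psmb8), and without that of day 10, 3 were called higher (Oas2, Mx2 and Usp18) and 2 lower (Irf1 and Gbp2). Of the 21 members with an adjusted p under 0.05, 7 kept it in each of the 8 fits that left out a single library (Irf1, Irf9, Ifit2, Oas2, Gbp2, Ifi27 and B2m). The other 14 lost it without at least 1 of the 0 μM libraries: Usp18, Mx2, Bst2, Ifi35 and Psmb9 without that of day 5 (highest adjusted p 0.19 in edgeR), Ifit1, Ifit3, Parp14 and Psmb8 without that of day 10 (highest 0.625), and Oasl1, Rsad2, Gbp3, H2-K1 and H2-D1 without that of day 5 and without that of day 10 (highest 0.311). Oasl1 and H2-K1 lost it without each of 4 treated libraries as well. None of the 21 changed sign in these fits.

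**Figure D2:**
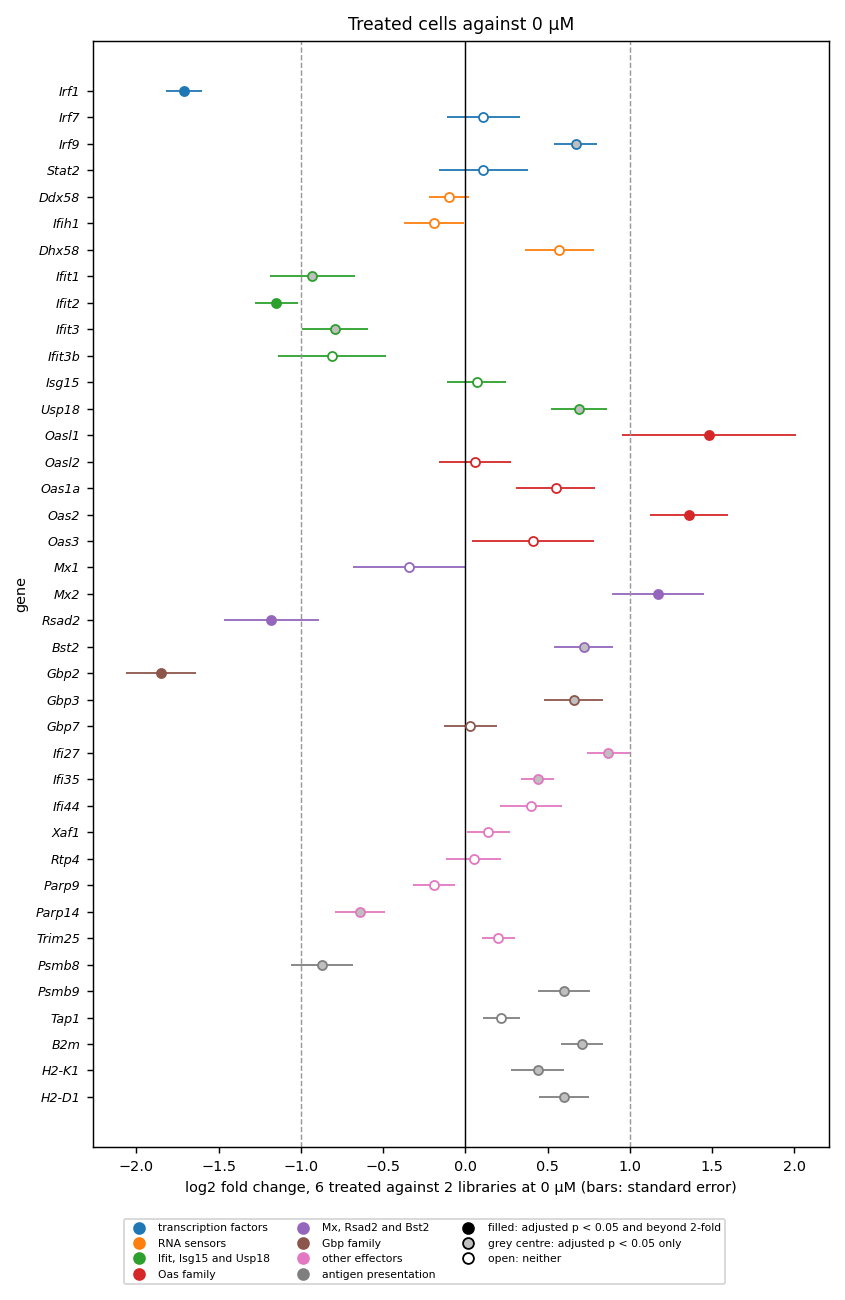
Log2 fold change of the 39 genes between the 6 treated libraries and the 2 libraries at 0 μM (horizontal axis, bars show the standard error), coloured by role. The 7 filled points lie beyond the dashed 2-fold lines, from Gbp2 at -1.85 to Oasl1 at 1.48.

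Among the transcription factors, Irf1, an early target of interferon gamma that also drives antigen presentation genes, had 58.9 CPM at 0 μM on day 5 and 73.9 CPM on day 10. Its treated libraries had a lowest value of 18.2, a median of 20.3 and a highest value of 23.1 CPM, all below both 0 μM libraries. Irf1 fell 3.27-fold (log2 fold change -1.71, SE 0.11, edgeR adjusted p = 4.97e-06), and it kept its call in each fit that left out a single library. Irf9, the DNA-binding subunit of ISGF3, was at 17.1 and 21.2 CPM at 0 μM and at 25.8 to 34.7 CPM (median 30.1) with treatment. Irf9 rose 1.59-fold (log2 fold change 0.67, SE 0.13, edgeR adjusted p = 0.00304), with no overlap between the groups. Irf7, which amplifies type I interferon production, was at 9.21 and 12.5 CPM at 0 μM and 8.4 to 15.6 CPM with treatment, a log2 fold change of 0.11 (SE 0.22). Stat2, a subunit of ISGF3, ranged from 87.6 to 178 CPM in the treated libraries and included both 0 μM values, 90.8 and 141.8 CPM. Stat2 was also lower in the 4 deeper of the 8 libraries than in the 4 shallower ones, by 0.65 on the log2 scale (edgeR adjusted p = 0.0216, no 2-fold difference), in a comparison added after the data were seen. No member was called between deeper and shallower libraries, against 0.417% of all genes. However, 10 of 39 members had an unadjusted p under 0.05, against 2637 of 16794 genes. On the lower side in the deeper libraries were 35 of 39. With depth as a covariate the treated comparison called 3 members higher and 4 lower, as without it.

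None of the 3 sensors of cytoplasmic viral RNA passed the test, and 9514 of all 16794 genes did not pass it either. The unadjusted p was under 0.05 for 1 of the 3 sensors, against 8645 of the 16794 genes. Ddx58 (RIG-I) had a log2 fold change of -0.1 (SE 0.12) and Ifih1 (MDA5) of -0.19 (SE 0.18). Dhx58 (LGP2), a regulator of the other sensors, was at 9.9 and 14.1 CPM at 0 μM and 11.6 to 23.4 CPM with treatment, a log2 fold change of 0.57 (SE 0.21, edgeR adjusted p = 0.0524).

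The Ifit genes, whose proteins bind viral RNA and block its translation, were on the lower side together. Ifit2 was at 41.6 CPM on day 5 and 45.4 CPM on day 10 without β-ecdysterone, and at 14.7 to 22.9 CPM (median 20.2) with it. All treated values of Ifit2 lay below both 0 μM values, and it fell 2.22-fold (log2 fold change -1.15, SE 0.13, edgeR adjusted p = 0.00012). Without the 0 μM library of day 10 the Ifit2 log2 fold change was -0.91, short of 2-fold. Ifit1 fell 1.91-fold (log2 fold change -0.93, SE 0.26, edgeR adjusted p = 0.0166) and Ifit3 1.73-fold (-0.79, SE 0.2, edgeR adjusted p = 0.0096). The day 5 libraries of Ifit1 overlapped with 0 μM: it had 21.7 CPM at 0 μM and 24.6, 16.2 and 17.6 CPM at 100, 150 and 200 μM, and on day 10 it had 37.9 CPM at 0 μM and 12.2, 12.6 and 13.9 CPM at the same doses. Ifit3b, a near copy of Ifit3 with which it may share reads, had a log2 fold change of -0.81 (SE 0.33, edgeR adjusted p = 0.0735). Isg15, the ubiquitin-like modifier, was at 10.7 and 14.2 CPM at 0 μM and 10.4 to 16 CPM with treatment, a log2 fold change of 0.07 (SE 0.18). Usp18, which removes Isg15 from proteins and restrains receptor signalling, was at 9.39 and 14 CPM at 0 μM and rose 1.62-fold to 15.9 to 21.5 CPM (log2 fold change 0.69, SE 0.17, edgeR adjusted p = 0.00921). Of this group 1 was called lower, 3 were lower and 1 was higher at an adjusted p under 0.05 without the fold limit, and 2 did not pass.

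The Oas family holds enzymes that make the 2′-5′ oligoadenylates which activate RNase L, and Oas-like proteins. Of its 5 genes 2 passed the test, both higher, and 3 did not. Oas2 was at 11.1 CPM on day 5 and 18.2 CPM on day 10 at 0 μM, and at 26.9 to 47.3 CPM (median 37.6) with treatment. The groups did not overlap, and Oas2 rose 2.56-fold (log2 fold change 1.36, SE 0.24, edgeR adjusted p = 0.00151), with a call in each fit that left out a single library. Oasl1, an Oas-like protein without the enzyme activity, which restrains translation of Irf7 in mouse cells, had 24 counts on day 5 and 12 on day 10 at 0 μM (0.473 and 0.38 CPM), and 0.431 to 1.75 CPM (median 1.26) with treatment. The 150 μM library of day 10 lay within the 0 μM values. Oasl1 rose 2.79-fold (log2 fold change 1.48, SE 0.53, edgeR adjusted p = 0.0448), but its adjusted p was 0.0642 to 0.182 when any of 6 libraries was left out, namely either 0 μM library, the 100 or 150 μM library of day 5, or the 100 or 200 μM library of day 10. Oas1a had a log2 fold change of 0.55 (SE 0.24, edgeR adjusted p = 0.0876) and may share reads with its copy Oas1g. Oas3 (0.41, SE 0.37) and Oasl2 (0.06, SE 0.22) did not pass the test either, and their treated values overlapped with 0 μM.

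Mx1, Mx2, Rsad2 and Bst2 belong to antiviral families that act at different steps, and their RNA levels diverged. Whether each makes a working protein in these cells cannot be read from RNA counts. Mx2, a dynamin-like GTPase annotated as a polymorphic pseudogene in GENCODE M21, was at 2.76 and 3.7 CPM at 0 μM and at 5.17 to 10.2 CPM (median 7.35) with treatment. All treated values of Mx2 were above both 0 μM values, and it rose 2.25-fold (log2 fold change 1.17, SE 0.28, edgeR adjusted p = 0.00719). Without the 0 μM library of day 5 the Mx2 log2 fold change was 0.79 (edgeR adjusted p = 0.106). Mx1, its neighbour on chromosome 16, had a log2 fold change of -0.34 (SE 0.34). Rsad2 (viperin), an enzyme that makes a chain-terminating nucleotide, had 54 and 38 counts at 0 μM on days 5 and 10 (1.07 and 1.2 CPM) and 0.393 to 0.597 CPM (median 0.498) with treatment. The Rsad2 groups did not overlap, and it fell 2.26-fold (log2 fold change -1.18, SE 0.29, edgeR adjusted p = 0.00888). Leaving out the 0 μM library of day 5 or of day 10 took its adjusted p to 0.0505 and 0.105. Bst2 (tetherin), which holds budding virus at the cell surface, was at 17.6 and 21.8 CPM at 0 μM and 24.5 to 38.5 CPM with treatment, and rose 1.65-fold (log2 fold change 0.72, SE 0.18, edgeR adjusted p = 0.0104).

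**Figure D3:**
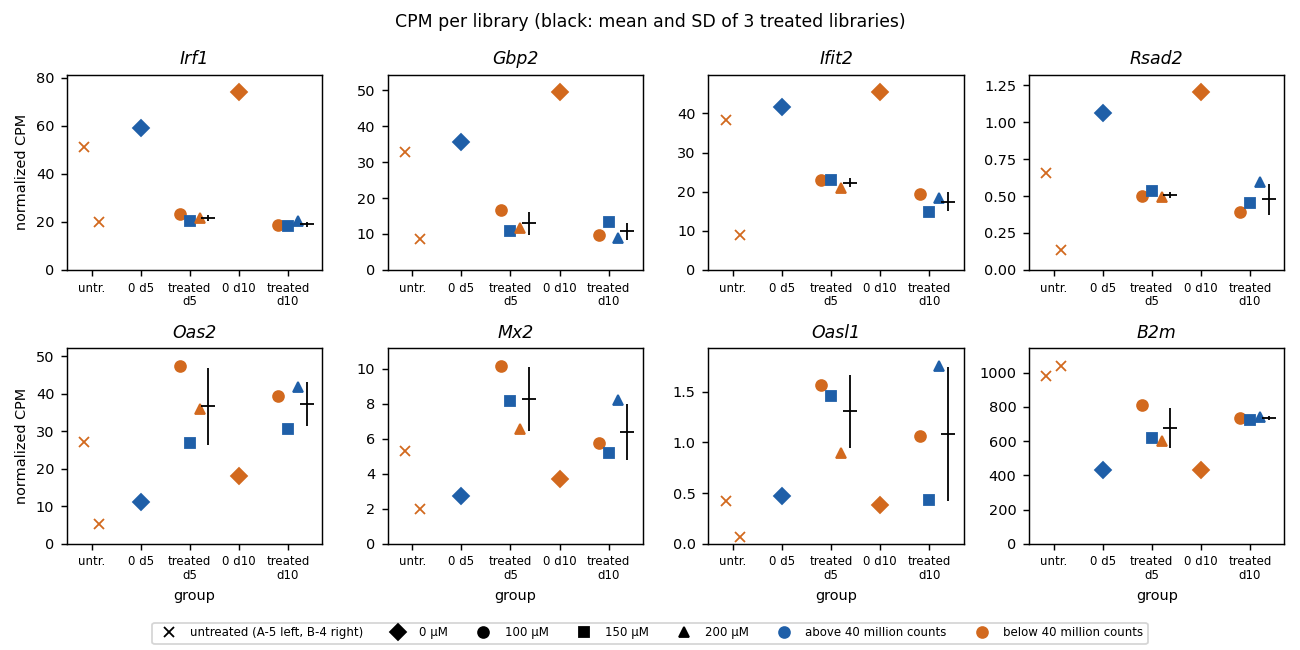
CPM of the 7 genes called and of B2m in each of the 10 libraries (vertical axes start at 0), with the mean and SD of 3 treated libraries in black and colours for libraries above and below 40000000 counts. Irf1, Gbp2, Ifit2 and Rsad2 lie below both 0 μM diamonds in all treated libraries, whereas the Oasl1 value at 150 μM on day 10 lies between them.

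The guanylate-binding proteins, GTPases that attack intracellular pathogens and are strongly induced by interferon gamma, split in the same way. Gbp2 was at 35.7 and 49.5 CPM at 0 μM and at 9.01 to 16.7 CPM (median 11.2) with treatment, with no overlap. It fell 3.61-fold (log2 fold change -1.85, SE 0.21, edgeR adjusted p = 0.00011) and was called in each fit that left out a single library. Gbp3 lies beside Gbp2 on chromosome 3 and rose: it was at 7.38 and 10.3 CPM at 0 μM and 11 to 18.6 CPM (median 13.6) with treatment, 1.58-fold higher (log2 fold change 0.66, SE 0.18, edgeR adjusted p = 0.0132). Gbp7, between 7.42 and 11.2 CPM in the treated libraries, had a log2 fold change of 0.03 (SE 0.16). The Gbp genes are similar in sequence and may share reads.

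Of the 8 other effectors none reached 2-fold. Ifi27, a membrane protein of the interferon program, was at 43.9 and 49.6 CPM at 0 μM and 65.2 to 109 CPM with treatment and rose 1.83-fold (log2 fold change 0.87, SE 0.13, edgeR adjusted p = 0.00053). Ifi35 rose 1.36-fold (log2 fold change 0.44, SE 0.1, edgeR adjusted p = 0.0044). Parp14, an ADP-ribosyltransferase, was at 45.3 and 56.5 CPM at 0 μM and 25.3 to 38.5 CPM with treatment and fell 1.56-fold (log2 fold change -0.64, SE 0.15, edgeR adjusted p = 0.00794). The others were Ifi44 (0.4), Trim25, the ubiquitin ligase that activates RIG-I (0.2), Xaf1 (0.14), Rtp4 (0.05) and Parp9 (-0.19), none past an adjusted p of 0.05 on these log2 fold changes.

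The 6 genes of antigen presentation had a median log2 fold change of 0.52. B2m was at 430.9 CPM on day 5 and 430.4 CPM on day 10 at 0 μM, and at 601.1 to 810.5 CPM (median 730.9) with treatment. All treated values were higher, and B2m rose 1.64-fold (log2 fold change 0.71, SE 0.13, edgeR adjusted p = 0.00178). H2-D1 was at 469.7 and 476.7 CPM at 0 μM and at 557 to 866.9 CPM (median 732.1) with treatment, and H2-K1 at 222.6 and 199 CPM at 0 μM and 231 to 352.7 CPM (median 286.7). These heavy chains rose by 1.52-fold (H2-D1, log2 fold change 0.6, SE 0.15, edgeR adjusted p = 0.0105) and 1.36-fold (H2-K1, 0.44, SE 0.16, edgeR adjusted p = 0.0489), and they are similar enough to share reads. The immunoproteasome subunits, which cut proteins into peptides for MHC class I, moved in opposite directions although their genes flank Tap1 on chromosome 17. Psmb9 was at 8.22 and 9.69 CPM at 0 μM and 11.2 to 15.3 CPM with treatment and rose 1.51-fold (log2 fold change 0.6, SE 0.16, edgeR adjusted p = 0.0145). Psmb8 was at 18.5 and 27.1 CPM at 0 μM and 10.1 to 15.6 CPM with treatment and fell 1.83-fold (log2 fold change -0.87, SE 0.19, edgeR adjusted p = 0.00448). Tap1, the peptide transporter whose gene adjoins Psmb9, was at 82.3 and 88.8 CPM at 0 μM and 83.1 to 110.2 CPM with treatment, a log2 fold change of 0.22 (SE 0.11, edgeR adjusted p = 0.123).

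Within the treated cells, the members were compared between the 3 libraries of day 10 and the 3 of day 5. None was called in edgeR, against 1.05% of all genes. An unadjusted p under 0.05 was found for 4 of the 39 members, against 2930 of 16020 genes. The log2 differences ran from -1.02 to 0.43. The lowest belonged to Mx1, at 4.26, 2.94 and 3.01 CPM at 100, 150 and 200 μM on day 5 and at 1.42, 1.67 and 1.91 CPM on day 10 (log2 fold change -1.02, SE 0.24, edgeR adjusted p = 0.0569). The days did not overlap for Mx1, and DESeq2, scaling to library totals and a looser filter on low counts each called it lower on day 10. Ifit1 (-0.59), Ifit2 (-0.35) and Ifi27 (0.35) were the other 3 with an unadjusted p under 0.05, and their edgeR adjusted p was 0.0947, 0.182 and 0.166.

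The 0 μM libraries of the 2 days can be compared only as single libraries. The day 10 library was higher in 35 of 39 members, with a median log2 ratio of 0.33 and a range from -0.28 (Oasl1) to 1.08 (Oas3), while the median over all genes was near 0. Oas3 was the only member over 2-fold higher (2.56% of the members, against 2.66% of all genes), and no member was over 2-fold lower, against 4.63%. The median difference between days was -0.07 in the treated cells and 0.33 in the 0 μM pair. In the treated cells 17 of 39 members were on the higher side on day 10.

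The test of whether the effect of treatment differed between days contains both of these differences. Its estimate was below 0, which means a less positive effect on day 10, in 34 of 39 members. The median was -0.37, against 0.02 over all genes, but no member was called in edgeR, against 0.0112% of all genes. The effect on each day rests on a single 0 μM library that all members share, so the members are not independent of each other. Ifit1 had the lowest adjusted p: its estimate was -1.39 (SE 0.32, edgeR adjusted p = 0.357), and DESeq2 and the looser filter called it. Relative to 0 μM of the same day, Ifit1 had log2 ratios of 0.18, -0.42 and -0.31 at 100, 150 and 200 μM on day 5 and of -1.64, -1.59 and -1.44 on day 10. The ratios of Irf1 were -1.35, -1.52 and -1.44 on day 5 and -1.99, -2.02 and -1.87 on day 10, with an estimate of -0.52 (SE 0.19, edgeR adjusted p = 0.54). Psmb8 was at median log2 ratios of -0.37 on day 5 and -1.25 on day 10, and Usp18 at 0.97 and 0.36.

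**Figure D4:**
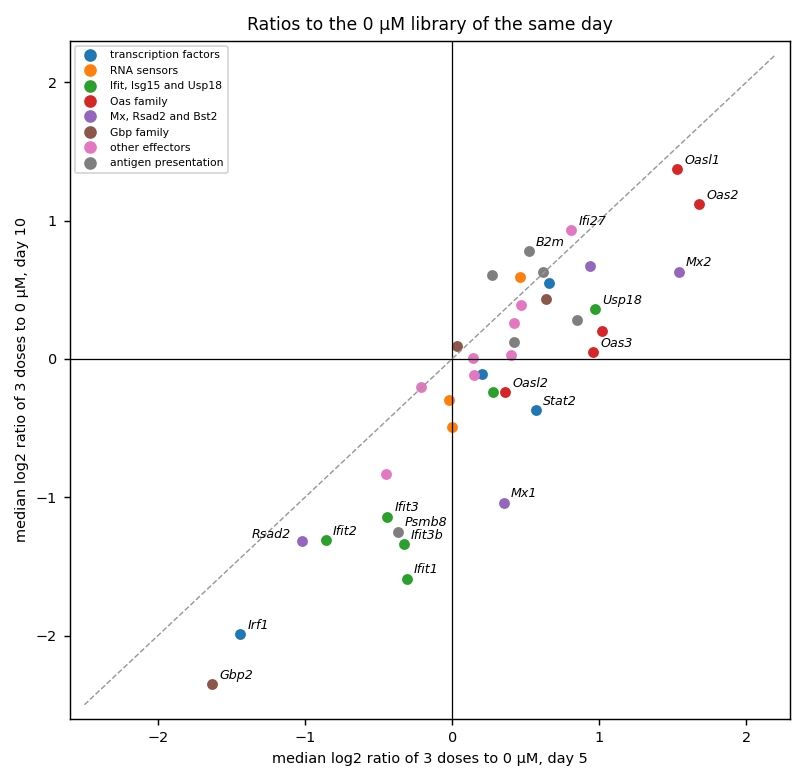
Median log2 ratio of the 3 doses to the 0 μM library of the same day, for day 5 (horizontal axis) and day 10 (vertical axis), with 1 point per gene coloured by role and the dashed line marking equal ratios. Most points lie below that line, and Mx1 (0.35 and -1.04) and Oasl2 (0.36 and -0.24) lie to the lower right of the origin.

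No trend with dose was found for any member. The slope per 100 μM over the 6 treated libraries, with day in the model, ran from -0.43 (Stat2) to 0.43 (Oas3). No member was called in edgeR, against 0.006% of all genes, and DESeq2 called none. An unadjusted p under 0.05 was found for 0 members, against 391 of 16664 genes. The 100 μM libraries of both days were shallow and the 150 μM libraries of both days deep, so dose and depth are partly confounded.

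Between the untreated libraries A-5 and B-4, a larger share of these genes than of all genes was lower in B-4. B-4 was over 2-fold lower than A-5 in 22 of the 39 members (56.4%), against 10.6% of all genes, and over 2-fold higher in 0, against 11.6%. The median log2 ratio was -1.15, against 0.04 over all genes, and there is no replicate for this comparison. All 6 genes of the Ifit, Isg15 and Usp18 group and all 5 of the Oas family were over 2-fold lower, with medians of -2.44 and -2.11. The lowest ratios were those of Ifit3b (-3.61), Ifit3 (-3.38) and Oas3 (-3.23). Ifit3 was at 21.9 CPM in A-5 and 2.05 CPM in B-4, Ifit3b at 8.78 and 0.672 CPM, Parp9 at 49.4 and 23.9 CPM, and Mx1 at 3.7 and 0.571 CPM. For Ifit3, Ifit3b and Parp9, A-5 lay above all 8 dosed libraries and B-4 below all of them. Of the antigen presentation genes 0 of 6 were over 2-fold lower, and their median was 0.12. B2m, at 979.2 CPM in A-5 and 1037 CPM in B-4, was above all 8 dosed libraries in both. Ifi27 had the highest ratio, 0.79, with 35.4 CPM in A-5 and 61.3 CPM in B-4. B-4 lay below all 8 dosed libraries in 29 of the 39 members, against 20.9% of all genes tested, and above all of them in 2, against 24.3%. A-5 lay below all 8 in 8 members, against 18.1%, and above in 4, against 16.8%. Both untreated libraries were below all dosed libraries for Psmb8 (7.93 and 4.84 CPM), Ifih1 (8.68 and 6.08), Gbp7 (6.68 and 3.46), Ifi44 (4.32 and 1.68) and Trim25 (30.4 and 20.1 CPM, in A-5 and B-4).

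**Figure D5:**
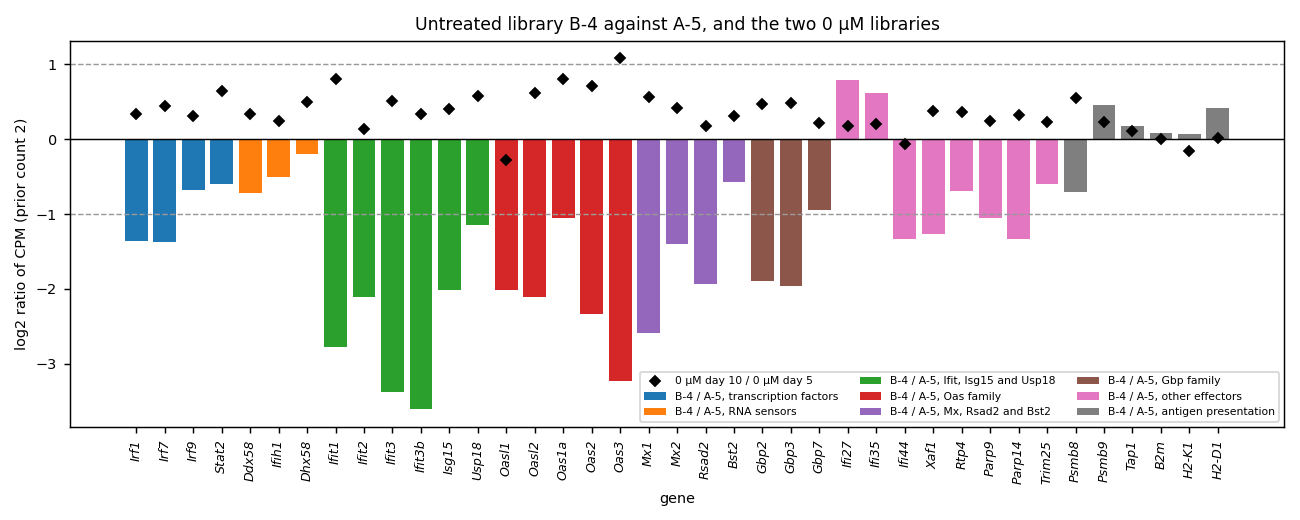
Log2 ratio of CPM between the untreated libraries B-4 and A-5 (bars, coloured by role) and between the 0 μM libraries of day 10 and day 5 (diamonds), for the 39 genes, with dashed lines at 2-fold. Bars reach -3.61 for Ifit3b, and the 6 antigen presentation genes at the right lie between -0.71 and 0.46.

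Several directions changed with the choice of control. With A-5 alone in place of the 0 μM libraries, Irf1 (log2 fold change -1.33) and Gbp2 (-1.46) were still called lower, together with Ifit3 (-1.54) and Ifit3b (-1.94), and Ifi27 (1.29), Ifi44 (1.17) and Trim25 (1.03) were called higher. Ifit2 was at -0.94, Rsad2 at -0.39, Oas2 at 0.46, Mx2 at 0.47 and Oasl1 at 1.49, none of these 5 called. With B-4 alone, Irf1 was at 0.05, Gbp2 at 0.47, Ifit2 at 1.2 and Rsad2 at 1.89, opposite in sign to the comparison with 0 μM, while Oas2 was at 2.82, Mx2 at 1.91 and Oasl1 at 4.11. B2m turned to -0.47 and -0.53 with A-5 and B-4, and Psmb8 to 0.66 and 1.38. These alternatives were chosen after the data were seen, and with both untreated libraries together 0 of the 4 members that fell were called lower.

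The wider pathway, written down as 137 other genes of the table in 6 lists, had 120 genes with enough counts. Of these, 6 (5%) were called higher and 12 (10%) lower, against 13.4% and 5.98% of all genes tested. Without the fold limit 23 (19.2%) were higher and 29 (24.2%) lower, against 22.6% and 20.8%. Their median log2 fold change was -0.07. Of 12 interferon genes only Ifnz could be tested, at 1 to 14 counts in a library, and it was called lower (log2 fold change -1.88, SE 0.61, edgeR adjusted p = 0.0303). Ifnb1, the type I interferon made by most cells, reached at most 3 counts in a library, and 6 of the 12 had 0 counts in all 10 libraries. At the library totals given above, 3 counts correspond to about 0.0499 to 0.118 CPM. None of 9 receptor and kinase genes reached 2-fold: Ifnar1 was at 0.22, Ifnar2 at -0.15, Ifngr1 at 0.14 and Jak1 at -0.07, whereas Ifngr2 (log2 fold change -0.48) and Tyk2 (-0.38) were lower and Jak2 (0.37) higher at an adjusted p under 0.05.

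Among 20 tested sensors and regulators, Tmem173 (STING), the adaptor for cytoplasmic DNA, fell 2.64-fold (log2 fold change -1.4, SE 0.22, edgeR adjusted p = 0.00085), and Socs3, an inhibitor of Jak kinases, fell 2.98-fold (-1.57, SE 0.14, edgeR adjusted p = 3.1e-05). Irf3 (-0.08) and Socs1 (-0.22) did not pass the test. Of 63 other interferon-stimulated genes 4 were called higher and 7 lower, against 13.4% and 5.98% of all genes tested. The 4 were Ifitm1, Igtp, Samhd1 and Ifi203, and the 7 were Plscr1, Zbp1, Gbp5, Slfn9, Irgm1, Ifi47 and Pml. The log2 fold changes furthest from 0 were 1.43 for Ifitm1, 1.4 for Igtp and 1.27 for Samhd1, and -1.63 for Plscr1, -1.48 for Zbp1 and -1.31 for Gbp5. Igtp, an immunity-related GTPase, was at 11 and 17.4 CPM at 0 μM and 32.7 to 46.8 CPM with treatment, and Plscr1, a phospholipid scramblase, at 37 and 34.9 CPM at 0 μM and 9.65 to 16.1 CPM. Neither gene's groups overlapped.

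Of 22 other genes of MHC class I presentation 0 were called higher and 2 lower, against 13.4% and 5.98% of all genes tested. Without the fold limit 2 were higher and 8 lower, against 22.6% and 20.8% of all genes. Psmb10, the immunoproteasome subunit that works beside Psmb8 and Psmb9, was at 23.2 and 32.9 CPM at 0 μM and 8.78 to 12.1 CPM with treatment and fell 2.72-fold (log2 fold change -1.45, SE 0.16, edgeR adjusted p = 9.8e-05). Tapbpl, a peptide editor, had a log2 fold change of -1.07, and Tapbp (tapasin), which bridges MHC class I and the transporter, fell 1.8-fold (log2 fold change -0.84, edgeR adjusted p = 0.00085). Nlrc5, the transactivator of MHC class I genes, was higher by 0.36 (edgeR adjusted p = 0.0175), and Tap2 was at -0.24 (SE 0.11). Of 8 MHC class II genes 5 had enough counts to be tested, and 2 of these were called higher, against 13.4% of all genes tested. They were H2-Eb1 (log2 fold change 1.7, edgeR adjusted p = 0.00596) and Ciita (1.6, edgeR adjusted p = 0.013), at no more than 1.42 and 0.886 CPM in any treated library.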

How the data were processed

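The authors sequenced polyadenylated RNA with a TruSeq kit and deposited 1 table of read counts per gene, without normalization, and of FPKM values per gene for 10 libraries. The submitters' processing notes name HISAT2 2.0.4 and GATK 3.2-2. The counting program, its strand setting, the genome build and the annotation are not given in the sources used here, so overlapping genes on opposite strands and near copies cannot be told apart. The table also holds 39 columns of the authors' edgeR comparisons of single libraries, which were not used. No column of values per library was left unmatched (0).

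Counts were analysed with edgeR 4.0.16 in R 4.3.3 (quasi-likelihood test, TMM normalization, filterByExpr), and tables were made with pandas 2.3.3 and numpy 2.4.6 in Python 3.11.15. The test was run on the whole table and checked on simulated data, and adjusted p-values (Benjamini-Hochberg) cover all genes tested. Calls required both more than a 2-fold difference (log2 beyond 1) and an adjusted p under 0.05, except that the dose trend required the adjusted p alone. The 6 treated libraries were compared with the 2 at 0 μM with day as a covariate. Days, the difference between days and dose were tested in the same way. CPM values use TMM over the 10 libraries. Ratios of single libraries used a prior count of 2 and no test. FPKM values were used only to compare levels between genes and, as log2(FPKM + 1), in limma 3.58.1, where fold changes of low genes are understated. Alternatives were DESeq2 1.42.0, other scalings and filters, single libraries left out, the untreated libraries as controls and depth as a covariate.

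The members and lists were chosen with earlier results of these data known. CPM values are given for members called and for the 5 with the highest mean FPKM, mostly as ranges for the treated libraries. Where both untreated libraries lay outside the other 8, the values of these 2 libraries are given. For each pathway list the 3 called genes of largest change in each direction are named, with 15 genes named whatever their values, of which the result for 1 is not reported here. Other named genes were chosen after their values were seen. Gene positions come from GENCODE M21 and promoters from RefSeq. Counting floors of 3 counts cover counting error only.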

Additional observations from a re-analysis of the deposited data

Results flagged for a closer look

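Oasl2 and Mx1 had opposite directions on the 2 days: each was higher than the 0 μM library of the same day at all 3 doses on day 5 and lower at all 3 doses on day 10. The median log2 ratio of Oasl2 was 0.36 on day 5 and -0.24 on day 10, and that of Mx1 was 0.35 and -1.04. The test of the difference between days passed for neither gene in edgeR, with an estimate of -0.79 (adjusted p = 0.617) for Oasl2 and of -1.58 (adjusted p = 0.468) for Mx1, and each ratio rests on a single 0 μM library per day.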

How the results depend on the processing

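For treated against 0 μM, the 3 members called higher became 1 (Oas2) with limma on log2(FPKM + 1) and 13 (33.3%) without a fold limit, against 22.6% of all genes. They became 0 when each treated library had to differ over 2-fold from 0 μM of its day, and 2 to 3 when 1 treated library was left out. The higher side also depended on the control: against B-4 alone the log2 fold changes of all 3 were larger, as given above. B-4 lay below all 8 dosed libraries in 29 of the 39 members, against 20.9% of all genes tested. The 4 called lower became 0 with A-5 and B-4 replacing 0 μM or with B-4 alone, 2 with them added to 0 μM, 8 without a fold limit, 2 (Irf1 and Gbp2) when all 6 treated libraries had to differ, and 2 to 7 when 1 library was left out. For day 10 against day 5, DESeq2, library totals and at least 1 count in total each called 1 member lower (Mx1). For the difference between days, DESeq2 and at least 1 count in total each called 1 (Ifit1). With dose as replicate block, 0 members were called between days, and the all-gene counts were 181 higher and 30 lower against 145 and 23. Each dose has 1 library per day, and no label says that libraries of 1 dose share a culture.

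Only the 19 sign changes past the adjusted p limit in either fit are listed here. Signs turned against B-4 alone for Irf1 (0.05), Ddx58 (0.85), Ifih1 (0.93), Ifit1 (1.94), Ifit2 (1.2), Ifit3 (1.89), Rsad2 (1.89), Gbp2 (0.47), Ifi35 (-0.23), Parp14 (0.88), Psmb8 (1.38) and B2m (-0.53). They turned with both untreated libraries in place of 0 μM for Rsad2 (0.33), Parp14 (0.04), Psmb8 (0.97) and B2m (-0.51), with both added for B2m (-0.02), and against A-5 alone for Psmb8 (0.66) and B2m (-0.47). The cause was not tested. Of 780 values per gene and setting in this comparison, 51 changed sign, 19 of them past the adjusted p limit in either fit. Without a change of sign, 27 lost and 27 gained a call.

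Over all genes, treated against 0 μM gave 2254 higher and 1005 lower, 526 and 612 with limma, 1099 and 737 at 10 counts or more in every library, 1078 and 460 with A-5 and B-4 replacing 0 μM, 1286 and 453 with them added, 1475 and 646 against A-5 and 1356 and 559 against B-4. Day 10 against day 5 gave 218 and 60 with DESeq2, 133 and 72 with library totals, which shift the median of all genes to -0.13, 274 and 72 at 1 count or more in total, 36 and 4 with limma, 182 and 44 with depth as a covariate, and 18 to 186 and 0 to 38 when 1 library was left out. The difference between days gave 0 higher and 2 lower, 47 and 23 with DESeq2 and 77 and 23 at 1 count or more in total, and the dose trend gave 1 and 0, and 49 and 59 at 1 count or more in total. Depth limits Oasl1 and Rsad2, which had 2 to 91 and 4 to 54 counts in a library.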
